A study of Mus musculus with 8 samples.

Results

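Complement is a blood and tissue defence system, and 9 of its genes were followed here in mouse testis: C1qa, C1qb, C1qc, C1ra, C1s1, C4b, C3, Cfb and Serping1. They were taken by name from the 55421 genes of each library, with earlier results of these data known. All 9 passed the filter on low counts that left 26414 genes for testing. The study measured RNA of whole testis from wild-type male mice in 8 libraries, 2 in each of 4 groups. LPS+DHEA+Nb received an intraperitoneal dose of lipopolysaccharide (LPS), a bacterial outer membrane component that sets off inflammation, and after 6 h an injection of dehydroepiandrosterone (DHEA), an adrenal steroid from which androgens are made, together with Nb23-bi, which the labels do not describe. LPS+DHEA received LPS and after 6 h DHEA without Nb23-bi, LPS received LPS alone, and CTRL received phosphate buffered saline instead. The labels state neither the doses nor the age of the mice, nor when the testes were taken.

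Complement works as a cascade of proteases. In the classical pathway C1q, a recognition protein built from the chains of C1qa, C1qb and C1qc, binds antibody or other surfaces and switches on the proteases C1r and C1s, whose genes here are C1ra and C1s1. C1s cuts C4 (C4b) and C2, which together form an enzyme that cuts C3, the protein on which all complement pathways meet. Factor B (Cfb) forms the C3-cutting enzyme of the alternative pathway, and the C1 inhibitor (Serping1) blocks C1r and C1s. Much of the complement in blood is made in the liver, C1q is known as a product of macrophages and related cells, and other components are also made locally by stromal and epithelial cells in inflamed tissues.

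Each library held 61.3 to 64.5 M counts, with 30142 to 30626 genes detected, and the 9 genes had 268 to 11035 counts per library. Values are CPM, counts scaled to the size of the library, given per library or as mean ± SD (n = 2 per group). Fold changes are on the log2 scale with their standard error (SE), and a gene was called where its edgeR p, adjusted over all 26414 genes, was under 0.05. The labels do not tie libraries to animals, so each p measures the spread between libraries, which may be technical. The label names testis although the extraction protocol speaks of islets, and 8 germ cell markers summed to 13132 to 16050 CPM in every library, whereas 3 of 5 islet hormone genes (Ins1, Sst and Iapp) were at 0 throughout. Hepatocyte genes summed to at most 0.393 CPM in any library, so the defining genes of liver were near 0.

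After LPS, the C1 proteases and their inhibitor were higher than in CTRL, the C1q chains were near their CTRL level, and C3 and Cfb had the highest fold changes but did not pass the test. In the test, 3 of the 9 genes rose in LPS against CTRL (C1ra, C1s1 and Serping1) and 0 fell, where 0.257% of all tested genes were called higher and 0.0379% lower. Both LPS libraries lay above both CTRL libraries for 6 of 9 genes, which add C3, Cfb and C4b, against 18.9% of all tested genes. The median log2 fold change of the 9 genes was 1.10, against -0.00 over all tested genes. In LPS+DHEA against CTRL, C1ra alone of the 9 was called higher, with 0.136% of tested genes called higher. C3 (log2 2.70, SE 0.48, adjusted p = 0.41) and Cfb (log2 2.26, SE 0.34, adjusted p = 0.147) had larger fold changes there but did not pass. In LPS+DHEA+Nb against LPS, C1ra alone was called lower, with 0.129% of tested genes called lower. The comparisons share the LPS or the CTRL libraries, so they are not independent of each other.

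**Figure D1:**
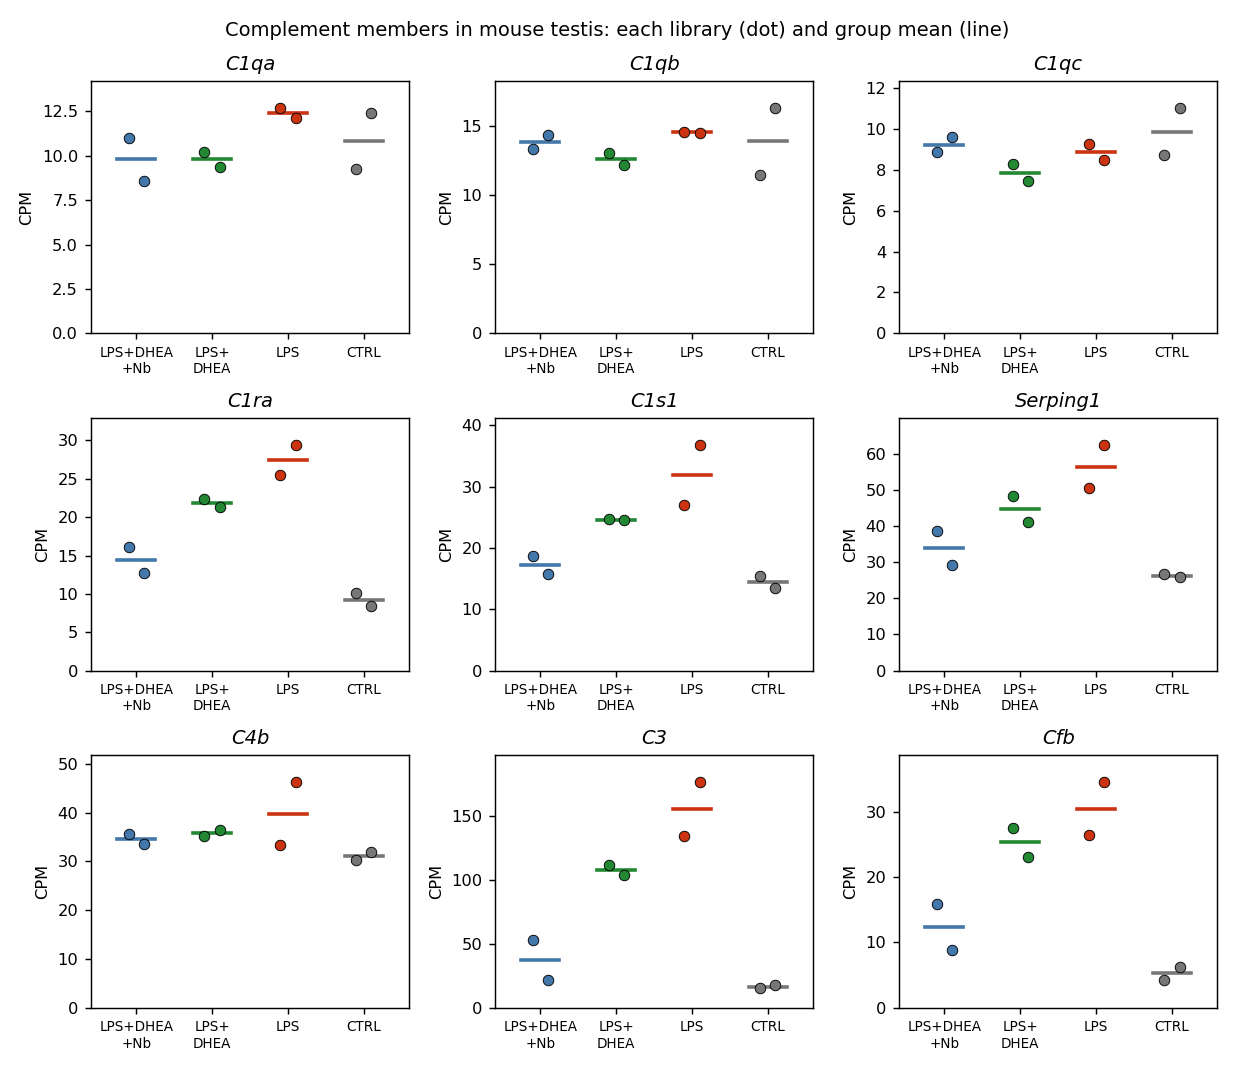
Level of each of the 9 complement genes in CPM (vertical axes, from 0) in the 8 libraries, by group. Dots are libraries and lines are group means. C1ra, C1s1, Serping1, C3 and Cfb step down from LPS through LPS+DHEA and LPS+DHEA+Nb to CTRL, while the C1q chains overlap between LPS and CTRL.

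Several of the genes are neighbours in the genome (GRCm38). The C1q chains stand in a row on the minus strand of chromosome 4, C1qb at chr4:136880129-136886187, C1qc at chr4:136889804-136893065 and C1qa at chr4:136895917-136898803, with 3616 and 2851 bases between them. C1ra (chr6:124512405-124523443, plus strand) and C1s1 (chr6:124530345-124542359, minus strand) lie end to end on chromosome 6 with 6901 bases between them. C4b (chr17:34728380-34743882) and Cfb (chr17:34856374-34862518) lie on the minus strand of chromosome 17 in the major histocompatibility complex, 112491 bases apart, and C3 (chr17:57203970-57228136, minus strand) is on the same chromosome. Serping1 lies alone at chr2:84765387-84775444 on the minus strand of chromosome 2. C2, the relative of Cfb, lies upstream of it on the same strand, with 85 bases between the end of C2 and the start of Cfb, so reads that run past the end of C2 could be assigned to Cfb.

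RefSeq promoter windows (GRCm38.p6, 250 bases before to 50 after the start) were matched for C3, C1qb, C1qc, C1ra and C1s1. C4b, C1qa, Cfb and Serping1 had no entry. The windows of C3, C1ra and C1s1, whose levels moved together over the libraries, are shown with that of C1qb, a chain whose level did not follow them. Capitals mark matches, on either strand, to 2 of the 4 motifs searched, the C/EBP motif TTGCNNAA and the gamma-activated site TTCNNNGAA.
C3, chr17:57228087-57228386, minus strand: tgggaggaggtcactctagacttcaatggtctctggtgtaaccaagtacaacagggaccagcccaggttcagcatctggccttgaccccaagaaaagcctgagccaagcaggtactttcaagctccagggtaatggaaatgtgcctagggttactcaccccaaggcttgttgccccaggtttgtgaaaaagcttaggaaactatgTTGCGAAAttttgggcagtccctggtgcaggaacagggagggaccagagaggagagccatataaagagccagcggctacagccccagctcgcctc
C1ra, chr6:124512371-124512670, plus strand: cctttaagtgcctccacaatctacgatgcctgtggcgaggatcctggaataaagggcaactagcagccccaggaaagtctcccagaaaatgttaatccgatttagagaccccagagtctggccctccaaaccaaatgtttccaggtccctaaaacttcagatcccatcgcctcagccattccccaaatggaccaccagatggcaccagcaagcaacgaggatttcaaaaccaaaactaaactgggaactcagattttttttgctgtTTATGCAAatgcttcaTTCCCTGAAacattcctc
C1s1, chr6:124542310-124542609, minus strand: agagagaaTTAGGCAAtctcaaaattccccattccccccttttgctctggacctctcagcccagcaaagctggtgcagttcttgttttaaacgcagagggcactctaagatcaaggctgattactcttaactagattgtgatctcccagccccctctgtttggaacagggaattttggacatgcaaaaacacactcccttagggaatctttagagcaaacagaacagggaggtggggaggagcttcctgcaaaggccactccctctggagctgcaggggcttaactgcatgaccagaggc
C1qb, chr4:136886151-136886450, minus strand: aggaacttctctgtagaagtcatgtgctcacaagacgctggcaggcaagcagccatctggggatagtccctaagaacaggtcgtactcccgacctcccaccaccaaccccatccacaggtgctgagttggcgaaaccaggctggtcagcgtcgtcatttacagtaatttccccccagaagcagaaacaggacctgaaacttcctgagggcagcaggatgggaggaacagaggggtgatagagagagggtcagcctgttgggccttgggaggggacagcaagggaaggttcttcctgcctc
The C3 window holds a C/EBP match that begins 45 bases before the start, in the proximal promoter. The C1ra window holds a C/EBP match that begins 16 bases after the start and a gamma-activated site 32 bases after it, and the 2 do not overlap. The annotated C1ra gene begins upstream of this RefSeq start, at chr6:124512405 within the window, so both matches lie farther downstream of that position. The C1s1 window holds a C/EBP match 242 bases before the start, which lies outside the window of its other RefSeq start. C/EBP factors and STAT proteins, which bind gamma-activated sites, are known to act at acute phase and interferon-responsive genes. The C1qb and C1qc windows hold no match, and no window of the 5 genes matched the kappa B motif (GGG and TTCC with 3 bases between) or the interferon-stimulated element (GAAA and GAAA with 2 bases between). Among 32544 promoter windows of the same length, 10.8% held the C/EBP letters, 8.33% the gamma-activated site, 5.56% the kappa B motif and 3.45% the interferon-stimulated element. A match is a run of letters, and binding was not measured.

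Per kilobase of annotated exon, which allows genes to be set side by side, the order of the 9 genes differed between groups. In the LPS+DHEA+Nb libraries Serping1 led at 14.6 ± 2.81 CPM per kilobase, followed by C1qb at 12.7 ± 0.666, C1qa at 9.42 ± 1.61 and C3 at 7.28 ± 4.27. In LPS+DHEA, C3 (20.9 ± 1.08) and Serping1 (19.2 ± 2.19) stood above all others, and their libraries overlapped. In LPS the same genes led, C3 at 30.2 ± 5.77 and Serping1 at 24.3 ± 3.63, again overlapping, with C1qb next at 13.4 ± 0.0372. In CTRL, C1qb (12.7 ± 3.13), Serping1 (11.3 ± 0.231) and C1qa (10.4 ± 2.14) could not be ordered beyond their spread, and C3 (3.22 ± 0.251), C1ra (3.10 ± 0.420) and Cfb (1.87 ± 0.505) were lowest. C3 thus had rank 7 of 9 in CTRL and, with all annotated exons, rank 1 in LPS. The places of C1qc and Serping1 depend on the length used. The CTRL level of C1qc was 5.10 CPM per kilobase with all annotated exons and 8.19 with the longest transcript. That of Serping1 was 11.3 and 14.9 in the same way, so its order with C3 in LPS and LPS+DHEA rests on this choice as well.

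The C1q chains, which form the recognition part of C1, had levels of 7.43 to 16.3 CPM in all 8 libraries, and none was called in any comparison. C1qa had 10.98 and 8.61 CPM in the LPS+DHEA+Nb libraries, 10.2 and 9.39 CPM in LPS+DHEA, 12.7 and 12.2 CPM in LPS and 9.25 and 12.4 CPM in CTRL. C1qb had 13.3 and 14.3 CPM in the LPS+DHEA+Nb libraries, 13.02 and 12.2 CPM in LPS+DHEA, 14.6 and 14.5 CPM in LPS and 11.5 and 16.3 CPM in CTRL. C1qc had 8.88 and 9.57 CPM in the LPS+DHEA+Nb libraries, 8.28 and 7.43 CPM in LPS+DHEA, 9.27 and 8.49 CPM in LPS and 8.69 and 11.003 CPM in CTRL. For all 3 chains the CTRL libraries bracketed or overlapped the LPS libraries, and CTRL 2 was above CTRL 1. The log2 fold change in LPS against CTRL was 0.20 for C1qa (95% interval -0.19 to 0.59), 0.07 for C1qb (-0.29 to 0.43) and -0.15 for C1qc (-0.51 to 0.21), so a change of 2-fold lies outside each interval. In LPS+DHEA against LPS the values were -0.34, -0.21 and -0.18, and in LPS+DHEA+Nb against LPS they were -0.34, -0.08 and 0.05. None of the 18 tests of the chains in the 6 comparisons was called by edgeR, none had an unadjusted p under 0.05, and none was called by DESeq2 or limma-voom.

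The proportions of the chains to each other varied between libraries. Per kilobase, C1qa over C1qb was 0.630 to 0.912 and C1qc over C1qb was 0.330 to 0.427 across the 8 libraries. C1qc over C1qb was highest in the CTRL libraries, at 0.427 and 0.381. For CTRL 2 this was by little, since LPS+DHEA+Nb 2 was at 0.377, and the difference was not tested. Macrophage markers, 12 genes of which none was at 0, summed to 292 to 299.6 CPM in LPS+DHEA+Nb, 282 to 294 in LPS+DHEA, 275 to 280.0 in LPS and 274 to 275 in CTRL. Aif1 made up most of this sum, and the other 11 markers summed to 89.2 to 96.0, 81.5 to 93.3, 76.6 to 85.2 and 79.2 to 82.3 CPM in the same order of groups. None of the 12 was called in LPS against CTRL, where 6 log2 fold changes were positive. The sums cover moves in both directions. Csf1r had 4.88 and 6.70 CPM in LPS and 11.8 and 9.77 CPM in CTRL. Adgre1 had 6.06 and 9.44 CPM in LPS and 5.18 and 4.53 CPM in CTRL. In LPS+DHEA+Nb against LPS, 8 of the 12 were positive, and Cd163, a scavenger receptor gene, was called lower. In RNA of whole testis, fewer cells of a type and less RNA per cell cannot be told apart.

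C1ra, whose product cuts and activates C1s, rose in LPS and in LPS+DHEA. It had 16.1 and 12.8 CPM in the LPS+DHEA+Nb libraries, 22.3 and 21.3 CPM in LPS+DHEA, 25.5 and 29.4 CPM in LPS and 10.1 and 8.36 CPM in CTRL. The CTRL libraries were the lowest of all and the LPS libraries the highest, with no overlap between any groups. It averaged 27.5 ± 2.73 CPM in LPS and 9.25 ± 1.25 CPM in CTRL, a 2.97-fold difference (log2 1.57, SE 0.15, adjusted p = 0.000998). In LPS+DHEA against CTRL the log2 fold change was 1.24 (SE 0.15, adjusted p = 0.0113). LPS+DHEA+Nb, at 14.5 ± 2.37 CPM, was below LPS (log2 -0.93, SE 0.15, adjusted p = 0.0424) and above CTRL by 0.64, which was not called (SE 0.15, adjusted p = 0.481). The rise in LPS was called in 18 of 18 alternative settings. The fall in LPS+DHEA+Nb was lost without LPS 2, without LPS+DHEA+Nb 2, without either LPS+DHEA library, or when only the LPS+DHEA+Nb and LPS groups were fitted, and the rise in LPS+DHEA was lost without CTRL 2 or LPS+DHEA 1.

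C1s1, the protease that cuts C4 and C2, had 18.7 and 15.8 CPM in the LPS+DHEA+Nb libraries, 24.7 and 24.6 CPM in LPS+DHEA, 27.02 and 36.8 CPM in LPS and 15.4 and 13.6 CPM in CTRL. Its libraries ranked the 4 groups in the same order as those of C1ra, again without overlap. It rose in LPS (31.9 ± 6.88 CPM) against CTRL (14.5 ± 1.28 CPM), 2.21-fold (log2 1.14, SE 0.15, adjusted p = 0.0114), a call lost without CTRL 2. In LPS+DHEA+Nb against LPS its log2 fold change was -0.88 (SE 0.15, adjusted p = 0.0625), just outside the threshold, and in LPS+DHEA against CTRL 0.77 (adjusted p = 0.146). An antisense gene that overlaps it, Gm16567, had 0 counts in all libraries. The mouse genome holds a close copy of each protease gene, and reads shared between copies could have been divided or dropped. C1rb had 0 to 178 counts and C1s2 had 32 to 92, against at least 535 for C1ra and 867 for C1s1.

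Set against the recognition chains, the proteases were in higher proportion in the LPS and LPS+DHEA libraries. Per kilobase, the mean of C1ra and C1s1 over the mean of the C1q chains was 0.531 and 0.625 in LPS+DHEA+Nb, 0.885 and 0.935 in LPS+DHEA, 0.849 and 1.10 in LPS and 0.329 and 0.521 in CTRL. The 4 LPS and LPS+DHEA libraries were above the other 4, and the LPS+DHEA+Nb libraries were above those of CTRL. An exact permutation test of 2 libraries against 2 cannot give a p under 0.333, and the ratio was tested in no other way. C1ra over C1s1 was 0.849 and 0.903 in LPS+DHEA+Nb, 0.909 and 0.950 in LPS+DHEA, 0.839 and 0.992 in LPS and 0.648 and 0.692 in CTRL, lowest in the CTRL libraries.

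**Figure D2:**
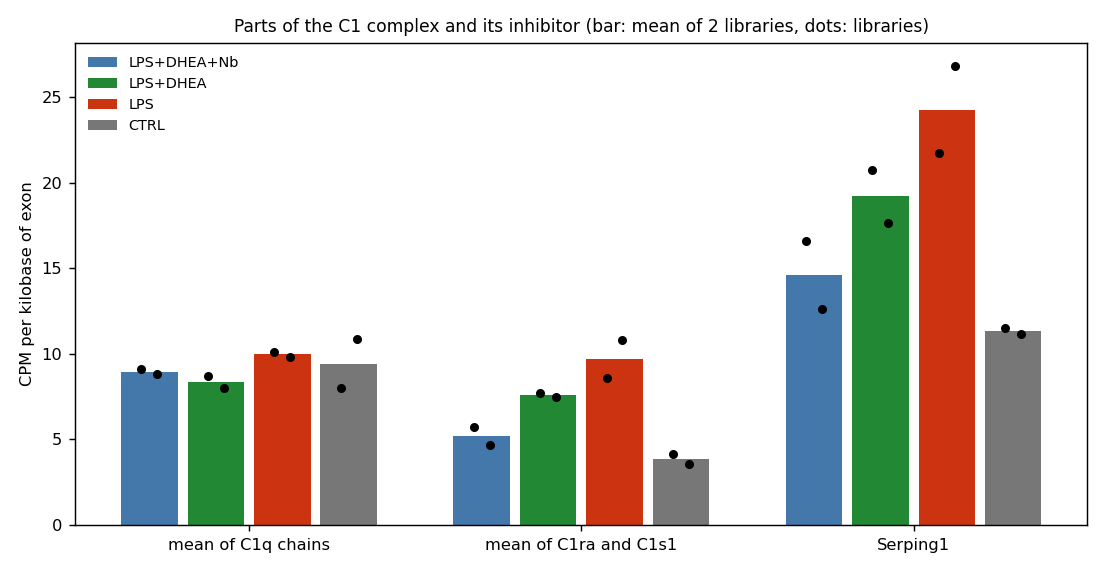
Level in CPM per kilobase of exon (vertical axis, from 0) of the mean of the 3 C1q chains, the mean of C1ra and C1s1, and Serping1. Bars are means of 2 libraries and dots are libraries. The C1q bars are of similar height in all groups, while the protease and Serping1 bars are highest in LPS and lowest in CTRL.

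Serping1, which encodes the inhibitor of C1r and C1s, rose with its targets after LPS. It had 38.6 and 29.4 CPM in the LPS+DHEA+Nb libraries, 48.3 and 41.1 CPM in LPS+DHEA, 50.5 and 62.4 CPM in LPS and 26.7 and 25.9 CPM in CTRL. The CTRL libraries were closest to each other, and the groups did not overlap. In LPS (56.5 ± 8.44 CPM) against CTRL (26.3 ± 0.537 CPM) it rose 2.14-fold (log2 1.10, SE 0.15, adjusted p = 0.0133). This call was lost without CTRL 1 or CTRL 2. Its log2 fold change was 0.76 in LPS+DHEA against CTRL (adjusted p = 0.137) and -0.73 in LPS+DHEA+Nb against LPS (adjusted p = 0.145), neither called. Per kilobase, Serping1 over the mean of the proteases was 2.71 and 2.91 in LPS+DHEA+Nb, 2.36 and 2.70 in LPS+DHEA, 2.49 and 2.53 in LPS and 2.77 and 3.13 in CTRL. The 4 LPS and LPS+DHEA libraries were below the other 4, by little for the nearest of them, and the difference was not tested.

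C4b, the gene of the C4 protein that C1s cuts, had 35.6 and 33.5 CPM in the LPS+DHEA+Nb libraries, 35.3 and 36.4 CPM in LPS+DHEA, 33.3 and 46.2 CPM in LPS and 30.4 and 31.9 CPM in CTRL. LPS 2 was the highest library and LPS 1 the lowest of the 6 treated libraries, and both CTRL libraries were below those 6. The log2 fold change in LPS against CTRL was 0.35 (95% interval 0.05 to 0.65, adjusted p = 0.613), and in the same comparison C1s1, whose product cuts C4, was at 1.14. C4a, a close copy of C4b, had 267 to 373 counts, and C4b held 85.1 to 90.4% of the CPM of both genes, so a part of each value could belong to the other. The rule for reads that match both genes could not be found in the labels or file headers.

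C3, the central component, spanned the widest range of the 9 genes. It had 52.97 and 21.9 CPM in the LPS+DHEA+Nb libraries, 112 and 104 CPM in LPS+DHEA, 135 and 176 CPM in LPS and 15.6 and 17.5 CPM in CTRL. No groups overlapped, but the LPS+DHEA+Nb libraries were far apart, with LPS+DHEA+Nb 2 close above the CTRL libraries. C3 averaged 37.4 ± 21.96 CPM in LPS+DHEA+Nb, 108 ± 5.58 CPM in LPS+DHEA, 156 ± 29.7 CPM in LPS and 16.6 ± 1.29 CPM in CTRL. LPS against CTRL gave a 9.39-fold difference (log2 3.23, SE 0.49, adjusted p = 0.21), which did not pass. LPS+DHEA+Nb against LPS gave -2.05 (SE 0.46, adjusted p = 0.498) and LPS+DHEA against LPS gave -0.53 (95% interval -1.72 to 0.66). C3 was called lower in LPS+DHEA+Nb than in LPS by DESeq2, by limma-voom and without either LPS+DHEA+Nb library, at -2.83 without LPS+DHEA+Nb 1 and -1.55 without LPS+DHEA+Nb 2. The fit shares 1 spread over the 4 groups, and without LPS+DHEA+Nb 1 or without LPS+DHEA+Nb 2 C3 was called higher in LPS than in CTRL, as it was by DESeq2, by limma-voom and with only the LPS and CTRL groups fitted.

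The balance of the components that are cut also differed between groups, which was not tested. Per kilobase, C3 over C4b was 0.724 and 1.65 in LPS+DHEA+Nb, 3.16 and 3.50 in LPS+DHEA, 4.23 and 4.47 in LPS and 0.571 and 0.607 in CTRL. C4b thus had the higher level per kilobase in both CTRL libraries and in LPS+DHEA+Nb 2, and C3 in the other 5. The 9 genes together summed to 183 ± 39.95 CPM in LPS+DHEA+Nb, 290.2 ± 15.5 CPM in LPS+DHEA, 377 ± 61.6 CPM in LPS and 138 ± 7.97 CPM in CTRL. C3 made up 19.6 ± 7.72%, 37.1 ± 0.0647%, 41.1 ± 1.15% and 12.03 ± 0.242% of these sums in the same order of groups.

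Cfb, the alternative pathway protease that pairs with C3b, followed C3. It had 15.9 and 8.80 CPM in the LPS+DHEA+Nb libraries, 27.5 and 23.1 CPM in LPS+DHEA, 26.4 and 34.5 CPM in LPS and 4.28 and 6.30 CPM in CTRL. LPS and LPS+DHEA overlapped, and both lay above LPS+DHEA+Nb, which lay above CTRL. It averaged 30.5 ± 5.70 CPM in LPS and 5.29 ± 1.43 CPM in CTRL, 5.75-fold (log2 2.52, SE 0.34, adjusted p = 0.0645), outside the threshold but called by DESeq2, by limma-voom, with only the 2 groups fitted and without either LPS+DHEA+Nb library. LPS+DHEA+Nb against LPS gave -1.30 (SE 0.32, adjusted p = 0.431), called by DESeq2 and without LPS+DHEA+Nb 1. Gm20547, a gene model that overlaps Cfb on the same strand, had 0 to 5 counts.

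**Figure D3:**
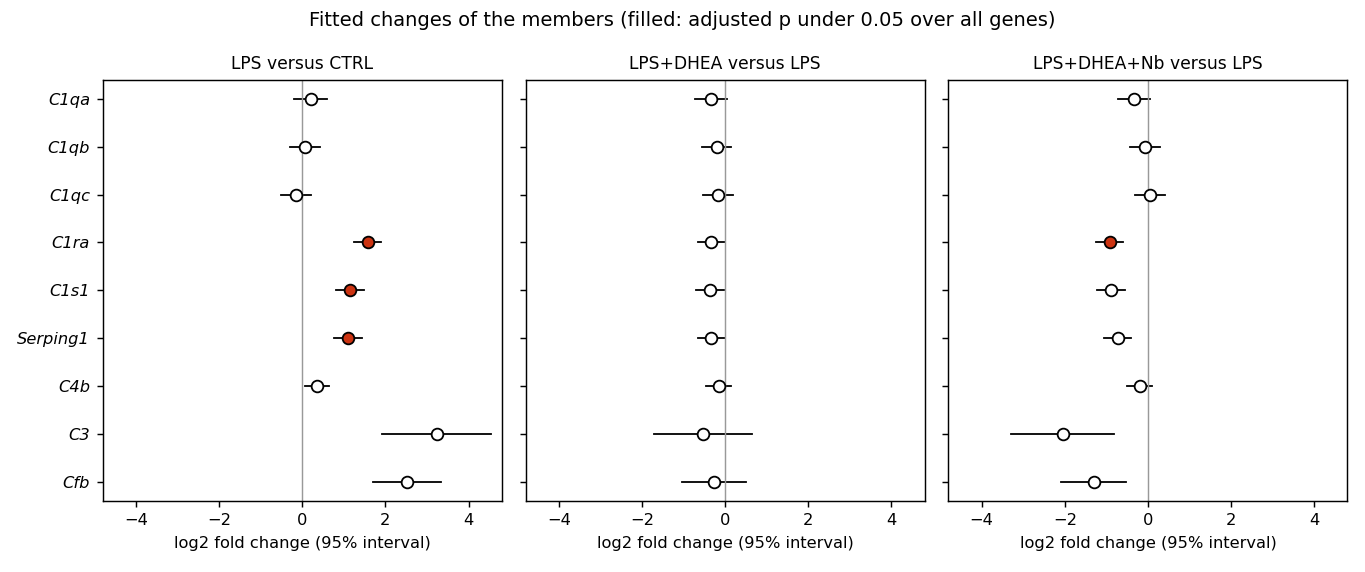
Fitted log2 fold change (horizontal axis) of each of the 9 genes with its 95% interval in LPS versus CTRL, LPS+DHEA versus LPS and LPS+DHEA+Nb versus LPS. Filled points had an adjusted p under 0.05. C3 and Cfb had the widest intervals and, in LPS versus CTRL and LPS+DHEA+Nb versus LPS, the changes farthest from 0, and C1ra is the filled point in LPS+DHEA+Nb versus LPS.

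In LPS+DHEA against LPS, where DHEA is the labelled difference, no member was called. All 9 log2 fold changes were negative, from -0.53 for C3 to -0.15 for C4b, which turned positive without LPS 2. None was called by edgeR, where 0.0114% of all tested genes were called lower, and none was called by DESeq2 or limma-voom. At an unadjusted p under 0.05 there were 3, where 1.78% of tested genes were lower in this way, C1ra (-0.33), C1s1 (-0.37) and Serping1 (-0.34). Both LPS+DHEA libraries lay below both LPS libraries for 7 of 9 genes, all but C4b and Cfb, against 15.7% of tested genes. The 95% intervals of C1ra (-0.65 to -0.01) and Serping1 (-0.66 to -0.01) reach close to 0.

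With Nb23-bi added to DHEA, levels were lower than after LPS alone for most of the 9. Besides the called C1ra, C1s1, Serping1, C3 and Cfb had an unadjusted p under 0.05 in LPS+DHEA+Nb against LPS, where 3.93% of tested genes were lower at that level. Both LPS+DHEA+Nb libraries lay below both LPS libraries for 7 of 9 genes, all but C4b and C1qc, against 18.6% of tested genes. Against LPS+DHEA, the comparison in which Nb23-bi is the labelled difference, 0 of 9 genes were called by edgeR, with 0.0568% of tested genes called lower, and DESeq2 called Cfb. There the log2 fold changes were -1.52 for C3 (SE 0.45), -1.03 for Cfb (0.32), -0.59 for C1ra (0.15), -0.51 for C1s1 (0.15) and -0.39 for Serping1 (0.15), all 5 with an unadjusted p under 0.05, against 2.68% of tested genes. The libraries of these 5 genes did not overlap, against 17.1% of tested genes lower in this way. C1qb and C1qc were higher without overlap, by 0.13 and 0.23, against 15.7% of tested genes.

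LPS+DHEA+Nb remained above CTRL in both libraries for 6 of 9 genes, against 16.4% of tested genes, but 0 were called by edgeR, where 0.0151% of tested genes were called higher. The log2 fold changes were 1.22 for Cfb (95% interval 0.42 to 2.02), 1.18 for C3 (-0.05 to 2.40), 0.64 for C1ra (0.32 to 0.97), 0.37 for Serping1 (0.04 to 0.70) and 0.26 for C1s1 (-0.08 to 0.59). An unadjusted p under 0.05 was found for 3, Cfb, C1ra and Serping1, against 2.18% of tested genes higher, and DESeq2 called Cfb. The libraries of this group differed from each other. LPS+DHEA+Nb 1 was at least 1.2 times LPS+DHEA+Nb 2 for C3, C1qa, Cfb, C1ra and Serping1, as it was for 23.2% of tested genes. A difference of at least 1.2 times was also seen elsewhere, though it was not counted in the other groups. C3 had 135 and 176 CPM in the LPS libraries, and C1qb had 11.5 and 16.3 CPM in those of CTRL. In proportion, C3 (52.97 and 21.9 CPM) and Cfb (15.9 and 8.80 CPM) were farther apart than these in LPS+DHEA+Nb. Without LPS+DHEA+Nb 2, C3 was called higher than in CTRL, and without LPS+DHEA+Nb 1 it was called lower than in LPS+DHEA. For 6 of 9 genes, C3, C4b, Cfb, C1ra, C1s1 and Serping1, the group means stood in the order LPS, LPS+DHEA, LPS+DHEA+Nb, CTRL from high to low, as for 5.96% of tested genes.

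The other genes of the pathway gave 0 calls. Of 49 further complement genes listed, 44 were tested, and none was called by edgeR in any of the 6 comparisons. Mbl2, Fcnb, C9, Cpn2 and C5ar2 did not pass the filter on low counts. In LPS against CTRL 22 of the 44 had a positive and 22 a negative log2 fold change, with a median of 0.00, against -0.00 over all tested genes. An unadjusted p under 0.05 was found for 7 higher and 2 lower genes, where 4.26% and 2.86% of all tested genes were so, and DESeq2 called Clu and Itgam higher.

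Among the early components, C2, the partner of C4b, had 24.8 and 19.4 CPM in the LPS+DHEA+Nb libraries, 23.5 and 24.2 CPM in LPS+DHEA, 22.5 and 26.1 CPM in LPS and 14.5 and 18.5 CPM in CTRL. Its log2 fold change in LPS against CTRL was 0.56 (SE 0.15, adjusted p = 0.292), and both CTRL libraries were the lowest. Cfd, the protease that activates factor B, had 180 and 685 counts in LPS and 88 and 263 in CTRL, and the groups overlapped. Of the membrane attack components, C7 (0.09), C8b (-0.08) and C8g (-0.06) were the most abundant, with log2 fold changes near 0. C6, another of them, was higher without passing (log2 1.02, SE 0.33, adjusted p = 0.44), as were Cfp, the stabiliser properdin (0.73, SE 0.29, adjusted p = 0.629), and C5ar1, a receptor for C5a (2.33, SE 0.64, adjusted p = 0.305). Counts of C5ar1 were low, at 118 and 34 in LPS and 20 and 10 in CTRL. C6, Cfp and C5ar1 were named after their values were seen, for an unadjusted p under 0.05. So were Itgb2, Cd59a and Mbl1, which complete the genes of the list past that level.

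Among regulators, Clu, which encodes clusterin, an inhibitor of the membrane attack complex abundant in Sertoli cells, had 811 and 645 CPM in the LPS+DHEA+Nb libraries, 829 and 905 CPM in LPS+DHEA, 869 and 890.1 CPM in LPS and 654 and 642 CPM in CTRL. The LPS and LPS+DHEA libraries were above all others, and the log2 fold change in LPS against CTRL was 0.44 (SE 0.09, adjusted p = 0.141). Cpn1, a carboxypeptidase that inactivates complement peptides, was at -0.06 in the same comparison. The membrane regulators Cd55b (-0.15), Cd55 (0.02) and Cd46 (-0.10), which protect cells from C3-cutting enzymes, had log2 fold changes near 0 in LPS against CTRL. Cd59a, a membrane inhibitor of the attack complex, had 8.81 and 6.04 CPM in the LPS+DHEA+Nb libraries, 11.9 and 9.75 CPM in LPS+DHEA, 6.71 and 7.39 CPM in LPS and 11.4 and 8.63 CPM in CTRL. Both LPS libraries were below both CTRL libraries, at a log2 fold change of -0.51 (SE 0.21, adjusted p = 0.656). Of the receptor genes, C1qbp (-0.01) and Cd93 (0.51) were not called. Itgam, the alpha chain of complement receptor 3 on myeloid cells, had 67 and 159 counts in LPS+DHEA+Nb, 679 and 452 in LPS+DHEA, 583 and 176 in LPS and 28 and 43 in CTRL. Its log2 fold change in LPS against CTRL was 3.42 (SE 0.75, adjusted p = 0.322), and that of Itgb2, the beta chain of the same receptor, was 0.66 (SE 0.29, adjusted p = 0.687).

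**Figure D4:**
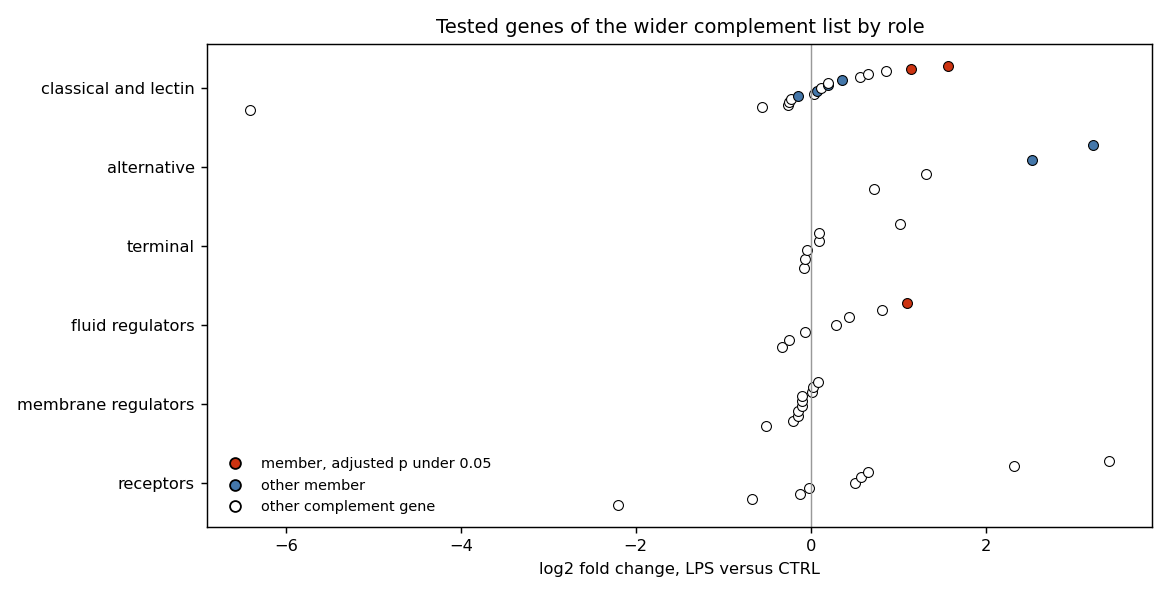
Fitted log2 fold change in LPS versus CTRL (horizontal axis) of the 53 tested genes of the complement list, by role. Red points are members with an adjusted p under 0.05, blue points other members and open points other complement genes. The open point far to the left is Mbl1, with 0 counts in both LPS libraries and 12 and 9 in CTRL.

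Over the 8 libraries, the genes whose log2 level was most like that of the members were sought among 14247 genes with a mean of at least 1 CPM. These correlations describe libraries that share the 4 groups, and carry no test. For C3 they were the MHC class I genes H2-D1 (Pearson r = 0.989, Spearman coefficient 0.976) and H2-Q4 (r = 0.987, Spearman coefficient 0.976) and the phagosomal metal transporter gene Slc11a1 (r = 0.985, Spearman coefficient 0.976). For Cfb they were the acute phase protease inhibitor Serpina3n (r = 0.988), C3 itself (r = 0.984) and Slc11a1 (r = 0.982). For C1ra they included H2-D1 (r = 0.989) and the cytokine signalling inhibitor Socs3 (r = 0.987). Those for C1s1 were Lox (r = 0.990), Socs3 (r = 0.986) and Serping1 (r = 0.977), and those for Serping1 were Socs3 (r = 0.990), H2-D1 (r = 0.984) and H2-Q4 (r = 0.982). The Spearman coefficient was 0.976 to 1 for these genes.

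C4b and the C1q chains had other nearest genes. They were Gsn (r = 0.968, Spearman coefficient 0.976), Htra3 (r = 0.965, Spearman coefficient 0.905) and Gata4 (r = 0.956, Spearman coefficient 0.857) for C4b. Rack1 (r = 0.970), Vcpkmt (r = 0.967) and the lysosomal protease gene Ctsb (r = 0.966) were nearest to C1qa. Lrrc3 (r = 0.962), Mef2b (r = 0.947) and Fhod1 (r = 0.934) were nearest to C1qb, and Ccnd1 (r = 0.949), Fcrla (r = 0.939) and Rgs3 (r = 0.938) to C1qc. The Spearman coefficient was 0.810 to 0.976 for the genes of the C1q chains. Among the members, r was 0.922 to 0.984 for every pair of C3, Cfb, C1ra, C1s1 and Serping1. C4b was at 0.727 to 0.817 with these 5. C1qa was at 0.273 to 0.426 with them, and between these 5 and C1qb r was -0.07 to 0.07, and between these 5 and C1qc -0.62 to -0.52.

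Sums of markers of other cells also differed between groups. Peritubular and smooth muscle markers, 5 genes, summed to 103 to 111 CPM in LPS+DHEA+Nb, 157 to 183 in LPS+DHEA, 177 to 182 in LPS and 95.4 to 105 in CTRL, and Acta2, smooth muscle actin, was called higher in LPS than in CTRL and lower in LPS+DHEA+Nb than in LPS. Fibroblast markers, 6 genes, summed to 108 to 151, 129.5 to 155, 124 to 214 and 103 to 108 CPM in the same order of groups, and Pdgfra, a receptor for platelet-derived growth factor, was called higher in LPS than in CTRL. Neutrophil markers, 10 genes of which 6 passed the filter, summed to 4.01 to 5.58, 6.04 to 7.98, 7.13 to 8.82 and 3.91 to 4.51 CPM. Mpo gave 3.02 and 3.26 CPM of the LPS sums and 3.20 and 3.08 CPM of the CTRL sums. S100a8 had 1.28 and 0.784 CPM in LPS and 0 in both CTRL libraries, and was called higher in LPS than in CTRL. Leydig cell markers, 6 genes, summed to 778 to 904, 602 to 614, 677 to 699.5 and 838 to 970.1 CPM. Insl3 made up most of each sum, at 484 to 597 CPM. In LPS against CTRL, 1 of the 6 Leydig log2 fold changes was positive, with a median of -1.14 and none called. None of the listed genes of these 4 types was at 0 in every library. Their part in the complement levels was not tested.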

How the data were processed

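RNA-seq of mouse testis was deposited as a file per library. The values were taken as estimated counts (expected counts) per Ensembl gene, as deposited by the authors and not scaled for depth. Per the labels' protocols the KAPA stranded kit was used, and the submitters' processing notes name HISAT, featureCounts 1.5.0-p3 and GRCm38. How these counts were otherwise made, the strand setting included, could not be found in the labels or headers. The values were whole. Multiples of 4 made up 33.5% of values from 1 to 40 and 25.0% of values from 1000 to 10000, where an even spread gives 25%. The tests planned for counts were used without rounding, and an alternative divided by 4.

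Positions and symbols came from GENCODE M21 (55240 and 55154 of 55421 gene identifiers matched). filterByExpr of edgeR 4.0.16 (minimum count 10, total 15; R 4.3.3) kept 26414 genes. A quasi-likelihood model with TMM scaling and 4 group means was fitted to all 8 libraries (4 residual degrees of freedom, common biological coefficient of variation 0.231), with Benjamini-Hochberg adjustment over all genes in each of 6 comparisons. SE is the log2 fold change over the square root of F. CPM uses TMM-scaled library sizes. Levels per kilobase use the union of annotated exons. No library pair held identical values, and the labels name no batch.

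The genes named are the 9 members, any called gene of a list of 58 complement genes, the 3 most abundant tested genes of each role in that list, and the 3 genes most correlated with each member (log2 of CPM + 0.5), of which 1 for C1ra is not reported here. Close copies and overlapping genes of members, and the list's genes with an unadjusted p under 0.05 in LPS versus CTRL, were added after values were seen. Members, lists and rules were chosen with earlier results of these data known. The settings varied were edgeR with DESeq2 size factors or with library size, no low-count filter, a CPM filter, DESeq2 1.42.0, limma-voom (limma 3.58.1), only the groups compared, a replicate block, counts divided by 4, an adjusted p under 0.10, each library left out, and another transcript length. Same-numbered libraries did not deviate together over genes as a whole. The steps were tested on simulated data.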

Additional observations from a re-analysis of the deposited data

How the results depend on the processing

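Members called moved with the setting, always in the direction of the reported fold change. In LPS versus CTRL, 3 became 5 with DESeq2, limma-voom or only the 2 groups compared (adding C3 and Cfb), and 1 to 5 when a library was left out. In LPS+DHEA versus CTRL, 1 became 3 without a low-count filter, 5 with DESeq2, 3 with limma-voom, 4 with only the 2 groups and 0 to 4 leaving out a library (0 without CTRL 2 or LPS+DHEA 1). In LPS+DHEA+Nb versus LPS, 1 became 2 without the filter, with the CPM filter, with limma-voom, with counts divided by 4 or at an adjusted p under 0.10, 5 with DESeq2, 0 with only the 2 groups and 0 to 4 leaving out a library. In LPS+DHEA+Nb versus CTRL and versus LPS+DHEA, 0 became 1 with DESeq2 and 0 to 1 leaving out a library. In LPS+DHEA versus LPS it was 0 in every setting. The whole complement list gave, for LPS versus CTRL, 7 with DESeq2, 5 with limma-voom, 6 with only the 2 groups and 1 to 6 leaving out a library. For LPS+DHEA versus CTRL it gave 3 without the filter, 7 with DESeq2, 3 with limma-voom, 5 with only the 2 groups and 0 to 5. For LPS+DHEA+Nb versus LPS it gave 2 without the filter, with the CPM filter, with limma-voom, with counts divided by 4 or at an adjusted p under 0.10, 6 with DESeq2, 0 with only the 2 groups and 0 to 5. DESeq2 gave 1 for LPS+DHEA+Nb versus CTRL and 2 for LPS+DHEA+Nb versus LPS+DHEA, and leaving out a library gave 0 to 1 in both. Where an arm is left with 1 library, it is assumed to vary like the other groups. The cause was not tested.

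Over all genes, LPS versus CTRL gave 78 calls, against 140 without the filter, 282 with DESeq2, 49 with limma-voom and 122 at an adjusted p under 0.10. LPS+DHEA+Nb versus LPS gave 45, against 87, 207 with DESeq2, 19 with only the 2 groups and 69. LPS+DHEA versus LPS gave 5, against 10 without the filter, 35 with DESeq2 and 20 with only the 2 groups. Leaving out a library gave 66 to 118 (118 without LPS 1), 43 to 88 (88 without LPS+DHEA+Nb 1, 74 without LPS 1) and 10 to 24 (24 without LPS 2) in these 3 comparisons, and of the others 27 to 65 against 40 in LPS+DHEA versus CTRL, 8 to 37 against 8 in LPS+DHEA+Nb versus CTRL and 16 to 64 against 23 in LPS+DHEA+Nb versus LPS+DHEA. With the replicate number as a block, members called stayed at 3 in LPS versus CTRL and at 1 in LPS+DHEA+Nb versus LPS, and no call of a member changed. Deviations of same-numbered libraries correlated at -0.06 to 0.07, so no strong shift over genes as a whole was shared by library number. A pairing that acts on few genes cannot be seen in this way.

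Of 972 alternative log2 fold changes of the members, 893 kept direction and call, 10 lost and 47 gained a call, 22 uncalled values changed sign and 0 called values reversed. With 2 libraries a group, intervals are wide for C3 and Cfb.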
